A study of Mus musculus with 18 samples.

Results

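The genes described here encode the subunits of the mitochondrial respiratory chain and of ATP synthase. They were taken by symbol, as genes named Nduf with a subunit letter and number (complex I), Sdha to Sdhd (complex II), Uqcr (complex III), Cox4 to Cox8 with a further letter (complex IV) and Atp5 (complex V), on a probe set that carries exactly 1 gene symbol. This rule gave 81 of the 19938 genes with such a probe set: 35 of complex I, 4 of complex II, 8 of complex III, 17 of complex IV and 17 of complex V. Together they lie on 105 probe sets, and the brightest on average stands for its gene. Cox7c and Ndufb4 share their probe sets with a second symbol and were not analysed here. The names decided the complex, so Ndufa4, a protein that is bound to complex IV, and its relative Ndufa4l2 are counted under complex I, and Cox7a2l, which joins complexes III and IV, under complex IV.

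RNA of MLg 2908 cells, a wild-type fibroblast line from the lung of newborn ddY mice, was hybridised to Affymetrix Mouse Gene 1.0 ST arrays. The cells had been plated on a collagen gel, and those found inside the gel (invading) were separated from those left on top (non-invading) after 96 hours (5 samples per fraction) or 72 hours (4 per fraction), which gives 18 samples. All samples share 1 cell line, and the labels number them as biological replicates, which the study describes as independent experiments. The treatment entry of every sample names TGFB1 beside the invasion assay although the sample titles name no treatment, so all groups share whatever that entry covers. In the study the cells invaded spontaneously, the legend of the array heatmaps names non-treated cells, and TGFB1 was added in a separate invasion assay.

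The respiratory chain passes electrons from NADH (complex I) and succinate (complex II) through coenzyme Q to complex III, cytochrome c and complex IV, where oxygen is reduced to water. Complexes I, III and IV pump protons across the inner membrane, and ATP synthase uses the gradient to make ATP. Most subunits are encoded in the nucleus, and many of their promoters are known to bind NRF1 and factors of the ETS family.

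The promoters of 3 subunits of complex II are shown because Sdha and Sdhd were higher and Sdhb was lower at 96 hours than at 72 hours in both fractions (values below). Sdhc, which was lower as well, had no promoter that could be matched. Each run holds the 120 bases before the RefSeq start of the gene, in build GRCm38.p6 and 5′ to 3′ on the strand of the gene. Capitals mark matches to the motif of NRF1, GCGCNTGCGC, on either strand.
Sdha, chr13:74350241-74350360, minus strand: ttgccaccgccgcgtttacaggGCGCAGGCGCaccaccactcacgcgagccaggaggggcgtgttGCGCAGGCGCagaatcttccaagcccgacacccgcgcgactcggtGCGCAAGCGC
Sdhd, chr9:50603850-50603969, minus strand: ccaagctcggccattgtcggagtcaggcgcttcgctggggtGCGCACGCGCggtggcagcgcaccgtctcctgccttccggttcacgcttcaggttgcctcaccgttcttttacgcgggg
Sdhb, chr4:140961151-140961270, plus strand: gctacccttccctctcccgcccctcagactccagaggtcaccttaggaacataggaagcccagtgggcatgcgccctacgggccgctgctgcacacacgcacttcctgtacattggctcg

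The motif was found 3 times in the stretch of Sdha and 1 time in that of Sdhd, and these letters are not in that of Sdhb. Over the whole window of 250 bases before to 50 after the start, 66 of the 81 genes could be matched by gene ID. Of these, 16 (24.2%) held the motif of NRF1, against 7.87% of the 15563 genes of the array with a promoter and 5.19% of all 27025 genes of the table. The ETS motif CCGGAAG was in 17 (25.8%), against 13.6% and 9.93%. Among the 15 matched subunits that were higher at 96 hours in both fractions, the motif of NRF1 was in 4 (26.7%) and the ETS motif in 5 (33.3%). Among the 11 that were lower in both, each was in 2 (18.2%), and a link between motif and direction was not tested.

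The deposited values are log2 signals. Sample medians were 6.46 to 6.65, and Pearson's r between samples of 1 group lay between 0.991 and 0.996 over all probe sets. Of the 9 fibroblast markers, Vim (13.40 to 13.59), Dcn (13.04 to 13.46), Pdgfra (12.16 to 12.79) and 5 others were bright in every sample, whereas Thy1 was dim (5.60 to 6.46). Epcam, Pecam1, Ptprc and Myh6, which define epithelial, endothelial, blood and heart muscle cells, stayed at or below 6.16 in every sample, but other markers of these lists were brighter. Tnnt2, of the muscle list, was at 8.10 to 9.80 (log2 ratio of invading over non-invading 0.81 at 96 hours, adjusted p = 0.015, and 0.15 at 72 hours, adjusted p = 0.64). Krt8, of the epithelial list, was at 7.07 to 8.05 and higher in the invading fraction at 96 and 72 hours (0.32 and 0.53, adjusted p = 0.027 and 0.021). Cd68, of the leukocyte list, was at 6.56 to 7.78 (0.56 at 96 hours, adjusted p = 0.0033, and 0.24 at 72 hours, adjusted p = 0.28). At 96 hours 3 of 6 epithelial, 1 of 5 leukocyte and 2 of 5 muscle markers were higher in the invading fraction, and the summed linear signal of the muscle list was 884 to 1200 there, against 605 to 841 in the non-invading fraction. The summed signal was 490 to 534 against 403 to 476 for the epithelial list and 309 to 399 against 262 to 305 for the leukocyte list, and the part of these markers in the results was not tested. The fibroblast markers Col1a1, Col1a2 and Col3a1 were below their non-invading level at both times. Pdgfrb was above it at 72 hours (log2 ratio 0.27, adjusted p = 0.038), with 0.07 at 96 hours (adjusted p = 0.43). Thy1, Dcn, Lum, Pdgfra and Vim had log2 ratios of -0.13 to 0.18 over both times, with an adjusted p of 0.21 or more. A signal of a bulk sample does not tell fewer cells that express a gene from less of its RNA per cell.

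The first question was whether the machinery of oxidative phosphorylation differs between invading and non-invading fibroblasts. At 96 hours the invading fraction had 20 of the 81 subunits higher and 8 lower, and at 72 hours 15 higher and 4 lower. A gene passed the test at an adjusted p under 0.10 from limma (Benjamini-Hochberg, across every probe set). Over all 19938 genes 16.7% were higher and 14.7% lower at 96 hours, and 13% and 13.5% at 72 hours. In percent of the subunits these are 24.7 higher and 9.88 lower at 96 hours, and 18.5 and 4.94 at 72 hours. So under this scaling more of the subunits than of all genes were higher and fewer were lower. Above a linear signal of 100, 26.9% of the subunits were higher and 11.5% lower at 96 hours, beside 26.9% and 23.9% of all genes. At 72 hours these shares were 25.6% and 12.8%, beside 21.3% and 24.6%. Above this floor the surplus of higher calls was thus absent at 96 hours, and fewer subunits were lower at both times. After a further quantile normalization the shares at 96 hours turned round, with 34.6% of the subunits higher and 14.8% lower, beside 38.6% and 12.5% of all genes. The median log2 ratio of the subunits was 0.050 at 96 hours and 0.075 at 72 hours, beside 0.024 and 0.038 over all genes.

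The differences were small. At 96 hours no subunit passed the test with a ratio above 1.5 (highest: Uqcrfs1, 1.46). An unadjusted p under 0.05 was found there for 31 of 81 (38.3%), beside 35.2% of all genes. At 72 hours 2 subunits passed the test with a ratio above 1.5, Atp5l and Uqcrfs1. Among all genes 3.15% did so at 96 hours and 3.57% at 72 hours. The samples of the fractions did not overlap for 19 subunits (23.5%) at 96 hours and for 24 (29.6%) at 72 hours, beside 18.2% and 24.8% of all genes. At both times 11 subunits were higher and 3 lower, and none was called in opposite directions. Of all 19938 genes 1673 were higher and 1914 lower at both times, and 3 were called in opposite directions. The ratios of the times, which share no samples, had the same sign in 67 of 81 subunits and in 15115 of the 19938 genes. Pearson's r was 0.85 over the 81 subunits and 0.82 over all genes, which are not independent points.

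**Figure D1:**
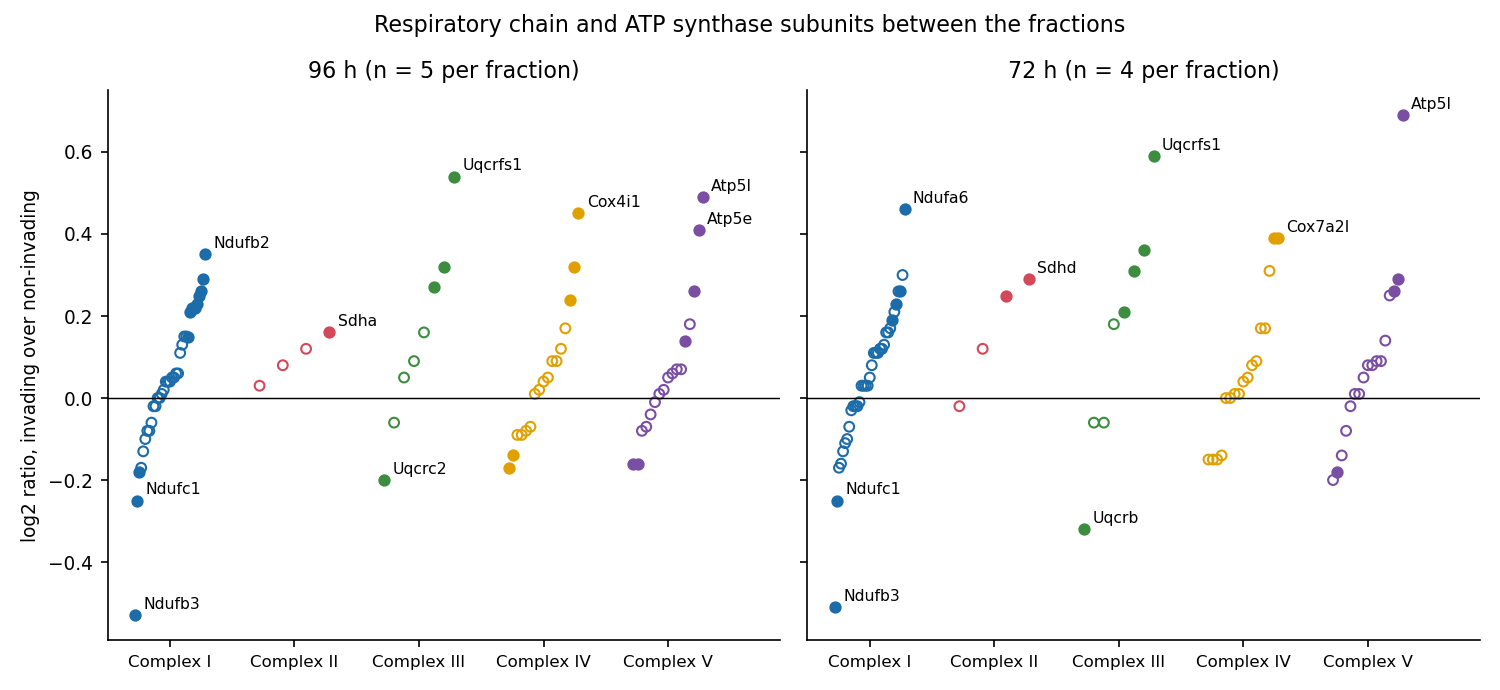
Log2 ratio of invading over non-invading for each of the 81 subunits (vertical axis), sorted within complexes I to V, at 96 hours (left) and 72 hours (right). Filled points passed the test (20 higher and 8 lower at 96 hours, 15 and 4 at 72 hours) and open points did not, and every complex holds points on both sides of 0 at one of the times.

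Complex I, the NADH dehydrogenase, had 9 of its 35 subunits higher and 3 lower in invading cells at 96 hours. At 72 hours these were 4 and 2. Ndufv1, which binds NADH and flavin at the entry of electrons, had log2 signals of 11.08, 11.03, 11.04, 11.04 and 11.31 in the invading samples at 96 hours, against 10.85, 10.75, 10.73, 10.86 and 10.86 in the non-invading samples. At 72 hours it had 10.85, 10.88, 10.81 and 10.90 in the invading samples, against 10.69, 10.65, 10.56 and 10.49 in the non-invading samples. The fractions did not overlap at either time, and the log2 ratio was 0.29 (standard error 0.0646, adjusted p = 0.0065) at 96 hours and 0.26 (standard error 0.0655, adjusted p = 0.022) at 72 hours. It was 1 of the 2 subunits of the catalytic core called at 96 hours, with Ndufs8 (log2 ratio 0.22), and all 6 core subunits measured had a ratio above 1 at that time.

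Ndufb3, an accessory subunit of the membrane arm, went the other way. Its signals were 8.21, 8.16, 8.02, 7.89 and 7.92 in the invading samples at 96 hours, against 8.55, 8.44, 8.31, 8.62 and 8.91 in the non-invading samples. At 72 hours they were 7.96, 7.84, 8.04 and 8.12 in the invading samples, against 8.63, 8.50, 8.58 and 8.28 in the non-invading samples. Every invading sample lay below every non-invading one at both times, and the log2 ratio was -0.53 (standard error 0.109, adjusted p = 0.0044) at 96 hours and -0.51 (standard error 0.0948, adjusted p = 0.0067) at 72 hours. It had the lowest ratio of the 81 subunits at both times.

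Other accessory subunits were split as well. Ndufa6, of the matrix arm, had log2 ratios of 0.23 (96 hours) and 0.46 (72 hours; adjusted p = 0.0067 and 0.0059), without overlap at either time. Ndufb2 had a ratio of 0.35 at 96 hours (adjusted p = 0.0018) and of 0.11 at 72 hours (adjusted p = 0.35), and Ndufb8 of 0.26 and 0.16 (adjusted p = 0.032 and 0.30). Both belong to the same membrane arm series as Ndufb3, of which 4 of 9 measured subunits were higher and 1 lower at 96 hours. Ndufc1 was lower at both times, with a log2 ratio of -0.25 each (adjusted p = 0.017 at 96 hours and 0.043 at 72 hours). Its call at 72 hours ended without invading replicate 1 or 2 or non-invading replicate 2 (adjusted p up to 0.11), and its other probe set had a ratio of -0.18 at 96 hours, which did not pass (adjusted p = 0.13). Ndufa7, of the matrix arm, had a log2 ratio of 0.21 at 96 hours (adjusted p = 0.066), a call that ended without any 1 of 6 samples (invading replicates 1, 4 and 5, non-invading replicates 2, 3 and 4), with an adjusted p up to 0.13.

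Complex II, succinate dehydrogenase, also works in the citric acid cycle. Sdha, which binds flavin and oxidises succinate, had signals of 11.41, 11.30, 11.34, 11.28 and 11.52 in the invading samples at 96 hours, against 11.25, 11.18, 11.20, 11.20 and 11.21 in the non-invading samples. At 72 hours it had 11.00, 11.04, 11.03 and 10.90 in the invading samples, against 10.81, 10.76, 10.71 and 10.69 in the non-invading samples. The fractions did not overlap, and the log2 ratio was 0.16 (standard error 0.0559, adjusted p = 0.05) at 96 hours and 0.25 (standard error 0.0633, adjusted p = 0.024) at 72 hours. Sdhd, a membrane anchor, had a ratio of 0.03 at 96 hours (adjusted p = 0.75) and of 0.29 at 72 hours (adjusted p = 0.026). Sdhb, the iron-sulfur subunit, with ratios of 0.12 at both times, and Sdhc, the other anchor, with 0.08 and -0.02, did not pass at either time.

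In complex III, which oxidises coenzyme Q, 3 of 8 subunits were higher and 1 lower at 96 hours, and 4 were higher and 1 lower at 72 hours. Uqcrfs1, the Rieske iron-sulfur protein, had signals of 9.09, 9.02, 8.99, 9.0 and 9.21 in the invading samples at 96 hours, against 8.50, 8.52, 8.33, 8.64 and 8.60 in the non-invading samples. At 72 hours the signals were 8.98, 9.24, 9.02 and 9.03 in the invading samples, against 8.69, 8.46, 8.27 and 8.50 in the non-invading samples. The invading samples were high in both sets with no overlap, with a ratio of 1.46 at 96 hours (log2 0.54, standard error 0.0696, adjusted p = 0.0003) and of 1.5 at 72 hours (log2 0.59, standard error 0.0992, adjusted p = 0.0043).

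Uqcrq, a small subunit that contacts cytochrome b, had log2 ratios of 0.32 at 96 hours and 0.36 at 72 hours (adjusted p = 0.0078 and 0.012). Uqcrc1, 1 of the 2 core proteins, had 0.27 and 0.31 (adjusted p = 0.017 and 0.022). Uqcrc2, the other core protein, was lower in the invading fraction at 96 hours, with signals of 11.81, 11.81, 11.86, 11.89 and 11.92 there, against 12.04, 12.10, 12.00, 12.05 and 12.09 in the non-invading samples (log2 ratio -0.20, adjusted p = 0.0084). So the core proteins of the complex differed in opposite directions at that time, and centring each array on its median, which left Uqcrc2 at -0.08 (adjusted p = 0.24), ended the call of Uqcrc2 alone. At 72 hours Uqcrc2 had -0.06 (adjusted p = 0.54), and Uqcrb, which binds next to the site of coenzyme Q, was the subunit that was lower (log2 ratio -0.32, adjusted p = 0.014).

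Complex IV, cytochrome c oxidase, had 3 of 17 nuclear subunits higher and 2 lower at 96 hours. At 72 hours 2 were higher and 0 lower (limma, 3 lower at an unadjusted p under 0.05). Cox4i1, the common form of the subunit through which ATP is known to slow the enzyme, had signals of 11.09, 10.93, 10.90, 11.03 and 11.05 in the invading samples at 96 hours, against 10.71, 10.47, 10.50, 10.59 and 10.46 in the non-invading samples. At 72 hours it had 11.08, 11.20, 11.03 and 11.16 in the invading samples, against 10.81, 10.85, 10.70 and 10.54 in the non-invading samples. All invading samples lay above all non-invading samples of the same time, and the log2 ratio was 0.45 (standard error 0.0638, adjusted p = 0.00051) at 96 hours and 0.39 (standard error 0.0827, adjusted p = 0.011) at 72 hours. Cox4i2, the form known from lung and low oxygen, had signals of 6.57 to 6.94 at 96 hours and of 6.55 to 7.11 at 72 hours over both fractions and did not pass (log2 ratio 0.09 and 0.17, adjusted p = 0.36 and 0.26).

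Cox7a2l, which helps to join complexes III and IV, had log2 ratios of 0.32 at 96 hours and 0.39 at 72 hours (adjusted p = 0.04 and 0.0078), and its other probe set had 0.36 and 0.51. Cox7b was lower at 96 hours (log2 ratio -0.17, adjusted p = 0.015, no overlap), a call that ended after median centring. Cox6a1, the common form of its subunit, had -0.14 at both times (adjusted p = 0.06 and 0.18). Its call at 96 hours ended after median centring and without invading replicate 2 or 4 or non-invading replicate 1 or 5 (adjusted p up to 0.14). The remaining common forms Cox6b1, Cox7a2 and Cox8a, and Ndufa4, did not pass at either time, with ratios between -0.15 and 0.12.

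The forms that are known from particular tissues or from low oxygen were all dim. The signals of Cox6a2, Cox7a1 and Cox8b (heart and skeletal muscle), Cox6b2, Cox7b2 and Cox8c (testis), Cox4i2 and Ndufa4l2 (induced by low oxygen in other cells) lay between 4.33 and 7.13 over all 18 samples. Of these 8 genes Cox6b2 was called at 96 hours, with 5.99, 6.23, 6.19, 6.06 and 6.24 in the invading samples, against 6.12, 5.87, 5.76, 5.94 and 5.83 in the non-invading samples (log2 ratio 0.24, adjusted p = 0.04). The fractions overlapped in 1 non-invading and 2 invading samples. At 72 hours 0 of the 8 were called (limma, 3 higher and 0 lower at an unadjusted p under 0.05). Cox7b2 had the dimmest probe set of the 81 subunits (mean 4.48) and Atp5d, a subunit of the central stalk of ATP synthase, the brightest (mean 13.22). Signals of different probe sets do not give the order of the RNA levels.

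Complex V, ATP synthase, had 4 of 17 subunits higher and 2 lower at 96 hours. At 72 hours 3 were higher and 1 lower. Atp5l, subunit g of the membrane part, had signals of 10.35, 9.91, 10.07, 10.20 and 10.40 in the invading samples at 96 hours, against 9.69, 9.71, 9.61, 9.78 and 9.68 in the non-invading samples. At 72 hours it had 10.37, 10.39, 10.46 and 10.39 in the invading samples, against 9.75, 9.82, 9.65 and 9.62 in the non-invading samples. The fractions stood clearly apart, with the widest spread in the invading samples at 96 hours, and the ratio was 1.41 at 96 hours (log2 0.49, standard error 0.0882, adjusted p = 0.002) and 1.62 at 72 hours (log2 0.69, standard error 0.0664, adjusted p = 0.00052). Atp5l lies on 6 probe sets, all of which passed at both times with log2 ratios of 0.45 to 0.53 at 96 hours and 0.62 to 0.81 at 72 hours, though probe sets of 1 gene share its RNA and possibly copies of its sequence.

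The other subunits of complex V that were called differed less. Atp5e, of the central stalk, had a log2 ratio of 0.41 at 96 hours (adjusted p = 0.013, no overlap) and of 0.25 at 72 hours (adjusted p = 0.13). Atp5o, which ties the peripheral stalk to the catalytic head, had 0.26 at both times (adjusted p = 0.011 at 96 hours and 0.059 at 72 hours). Its call at 72 hours ended without invading replicate 4 or non-invading replicate 3 or 4 (adjusted p up to 0.14). Atp5mpl, a small accessory protein, had 0.29 at 72 hours (adjusted p = 0.061), which ended without invading replicate 3 or 4 or non-invading replicate 3 or 4 (adjusted p up to 0.15). Atp5j, of the peripheral stalk, was lower at both times, at -0.16 and -0.18 (adjusted p = 0.063 and 0.058), and each of these calls ended without any 1 of 5 samples (adjusted p up to 0.14). The samples were invading replicates 3 to 5 and non-invading replicates 4 and 5 at 96 hours, and invading replicates 1 and 4 and non-invading replicates 1 to 3 at 72 hours. The genes of subunit c, which forms the rotor ring, did not pass, with ratios of -0.04 and -0.20 for Atp5g1, -0.08 and 0.01 for Atp5g2 and -0.07 and 0.01 for Atp5g3 at 96 and 72 hours.

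**Figure D2:**
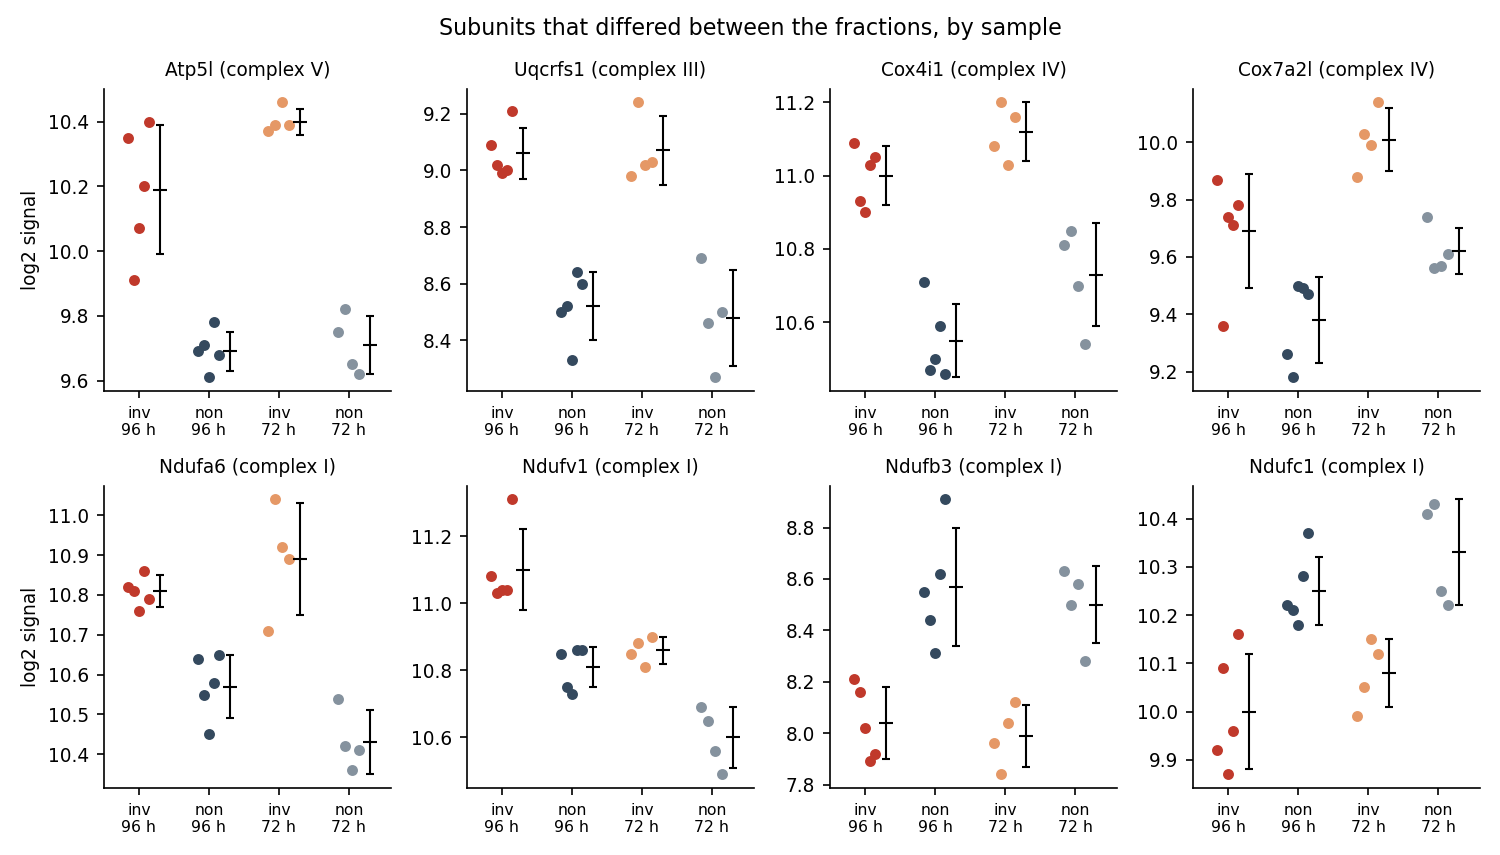
Log2 signal (vertical axes, each with its own range) of 8 subunits in every sample of the invading (inv) and non-invading (non) fraction at 96 and 72 hours, with the mean and SD beside the points. The invading samples lie above the non-invading samples of the same time for Atp5l, Uqcrfs1, Cox4i1, Ndufa6 and Ndufv1 and below them for Ndufb3 and Ndufc1, without overlap, while Cox7a2l overlaps at 96 hours.

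The second question was how the subunits changed between the time points. In the invading fraction 19 subunits were higher and 18 lower at 96 hours than at 72 hours, and in the non-invading fraction 19 were higher and 20 lower. In percent of the subunits these are 23.5 higher and 22.2 lower for the invading fraction, beside 18.2% and 16.7% of all genes. For the non-invading fraction they are 23.5 and 24.7, beside 15.4% and 12.2% of all genes. Above a linear signal of 100, 24.4% of the subunits were higher and 28.2% lower in the invading fraction, beside 31.5% and 21.5% of all genes. In the non-invading fraction these shares were 28.2% and 30.8%, beside 26.8% and 20.1%. The times did not overlap for 34 subunits (42%) in the invading fraction and 30 (37%) in the non-invading fraction, beside 23.6% and 20% of all genes. The median log2 difference was -0.025 and -0.040, beside -0.031 and -0.017 over all genes. The labels give no culture day or array batch for the samples, so time and batch cannot be told apart.

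Most subunits that moved were shared by the fractions. All 19 that were higher in 1 fraction were higher in the other, 13 were lower in both, and 0 were called in opposite directions. Of all 19938 genes 2484 were higher and 1549 lower in both fractions, and 5 were called in opposite directions. The fractions share no samples in these comparisons. The differences had the same sign in 76 of 81 subunits and in 15229 of the 19938 genes. Pearson's r was 0.91 over the 81 subunits and 0.80 over all genes, which are not independent points. The 19 were Ndufb5, Ndufb6, Ndufc2, Ndufs1, Ndufs4, Ndufv1 and Ndufv2 of complex I, Sdha and Sdhd, Uqcrb and Uqcrc2, Cox5b, and Atp5a1, Atp5c1, Atp5d, Atp5h, Atp5j, Atp5md and Atp5pb of complex V. The 13 were Ndufa7, Ndufb8 and Ndufv3, Sdhb and Sdhc, Uqcr10 and Uqcrc1, Cox6a2, Cox7a2l and Cox8a, and Atp5g1, Atp5j2 and Atp5o. Every complex thus held subunits of both directions. The lists rest on the brightest probe set of each gene. The other probe set of Atp5pb did not pass over time (0.09 and 0.10, adjusted p = 0.27 and 0.23), nor did that of Cox7a2l. Conversely, another probe set was lower in both fractions for Ndufb11 (-0.33 and -0.20, adjusted p = 0.00044 and 0.025). The same held for Ndufa11 (-0.17 and -0.32, adjusted p = 0.063 and 0.0024).

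**Figure D3:**
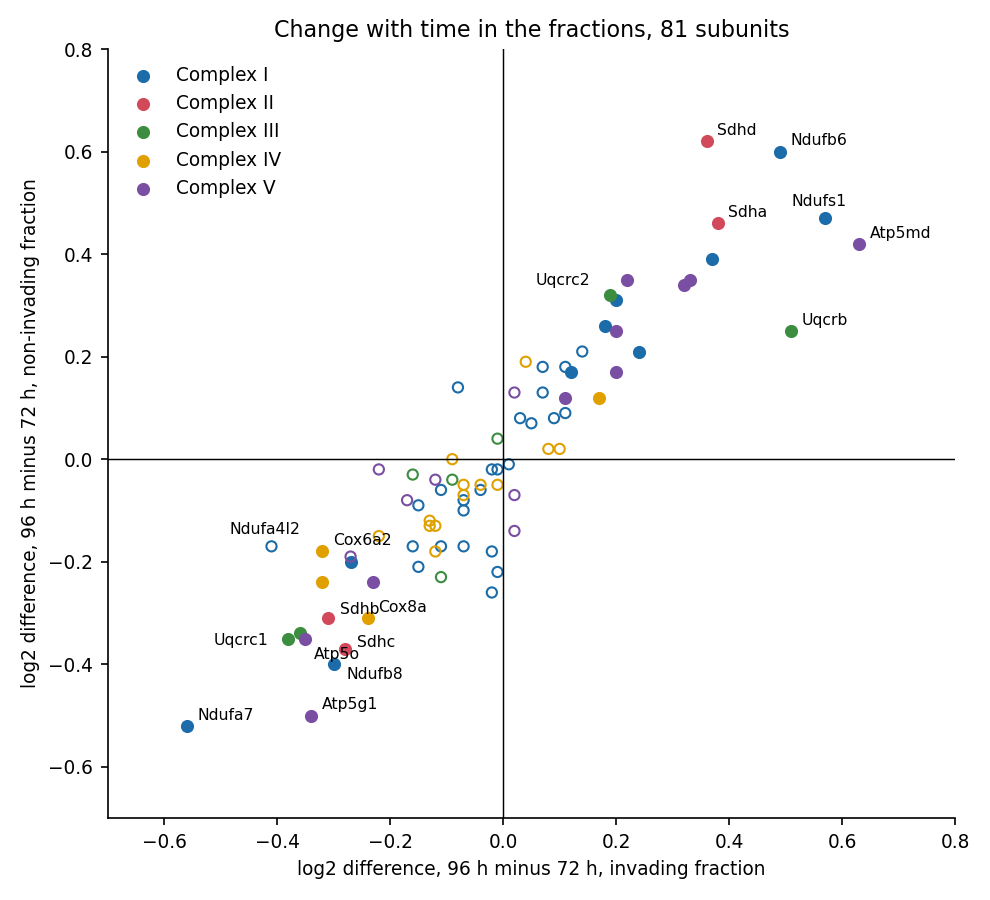
Log2 difference of 96 hours minus 72 hours in the invading fraction (horizontal axis) and in the non-invading fraction (vertical axis) for the 81 subunits, coloured by complex. Filled points passed the test in both fractions (19 higher and 13 lower) and open points did not, and 76 of the 81 have the same sign on both axes.

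In complex II all 4 subunits were called in both fractions, 2 in each direction. Sdha, with the signals given above, was 0.38 higher at 96 hours in the invading fraction (standard error 0.0547, adjusted p = 7.5e-05) and 0.46 higher in the non-invading fraction (adjusted p = 2.7e-05). Sdhd had signals of 10.66, 10.77, 10.59, 10.62 and 10.81 at 96 hours, against 10.21, 10.34, 10.27 and 10.50 at 72 hours, in the invading fraction. In the non-invading fraction it had 10.58, 10.62, 10.58, 10.71 and 10.80 at 96 hours, against 10.09, 10.08, 10.01 and 9.97 at 72 hours. No sample of 72 hours reached the range of 96 hours, and the log2 difference was 0.36 (adjusted p = 0.00081) and 0.62 (adjusted p = 1.4e-05) in the invading and the non-invading fraction.

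Sdhb and Sdhc were lower at 96 hours. Sdhb had signals of 10.06, 9.65, 9.77, 9.93 and 9.87 at 96 hours, against 10.12, 10.23, 10.05 and 10.25 at 72 hours, in the invading fraction (log2 difference -0.31, adjusted p = 0.0088). In the non-invading fraction it had 9.67, 9.72, 9.61, 9.83 and 9.83 at 96 hours, against 10.10, 10.14, 10.06 and 9.89 at 72 hours (-0.31, adjusted p = 0.0095). The times touched in the invading fraction, where 1 sample of 96 hours lay at the level of the lowest of 72 hours, and stood apart in the non-invading fraction. Sdhc was at 10.83 to 10.95 at 96 hours, against 11.11 to 11.30 at 72 hours, in the invading fraction (-0.28, adjusted p = 0.00072), and at 10.77 to 10.86 against 11.09 to 11.25 in the non-invading fraction (-0.37, adjusted p = 9.9e-05). None of these 8 calls of complex II ended under an alternative or without a sample.

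Complex III was split between its core proteins. Uqcrc1 had signals of 10.87, 10.79, 10.86, 10.98 and 11.13 at 96 hours, against 11.30, 11.25, 11.24 and 11.43 at 72 hours, in the invading fraction. Its log2 difference was -0.38 in the invading fraction (adjusted p = 0.0011) and -0.35 in the non-invading fraction (adjusted p = 0.0031), without overlap of the times. Uqcrc2 had 11.81, 11.81, 11.86, 11.89 and 11.92 at 96 hours, against 11.58, 11.67, 11.71 and 11.73 at 72 hours, in the invading fraction, a difference of 0.19 (adjusted p = 0.0058), and of 0.32 in the non-invading fraction (adjusted p = 0.00013). The call in the invading fraction ended after a further quantile normalization (adjusted p = 0.11).

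Uqcrb, whose signals in the invading fraction were 12.02, 12.07, 11.98, 11.96 and 12.15 at 96 hours, against 11.56, 11.53, 11.65 and 11.38 at 72 hours, was 0.51 higher (adjusted p = 1.4e-05), and 0.25 higher in the non-invading fraction (adjusted p = 0.0079). Its 3 probe sets gave 0.50 to 0.61 in the invading fraction. Uqcr10, a small subunit that holds cytochrome c1 in place, was 0.36 lower in the invading and 0.34 lower in the non-invading fraction (adjusted p = 0.002 and 0.0045). Uqcrfs1 and Uqcrq, with higher levels in invading cells, had differences of -0.01 and -0.09 in the invading and of 0.04 and -0.04 in the non-invading fraction and did not pass.

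**Figure D4:**
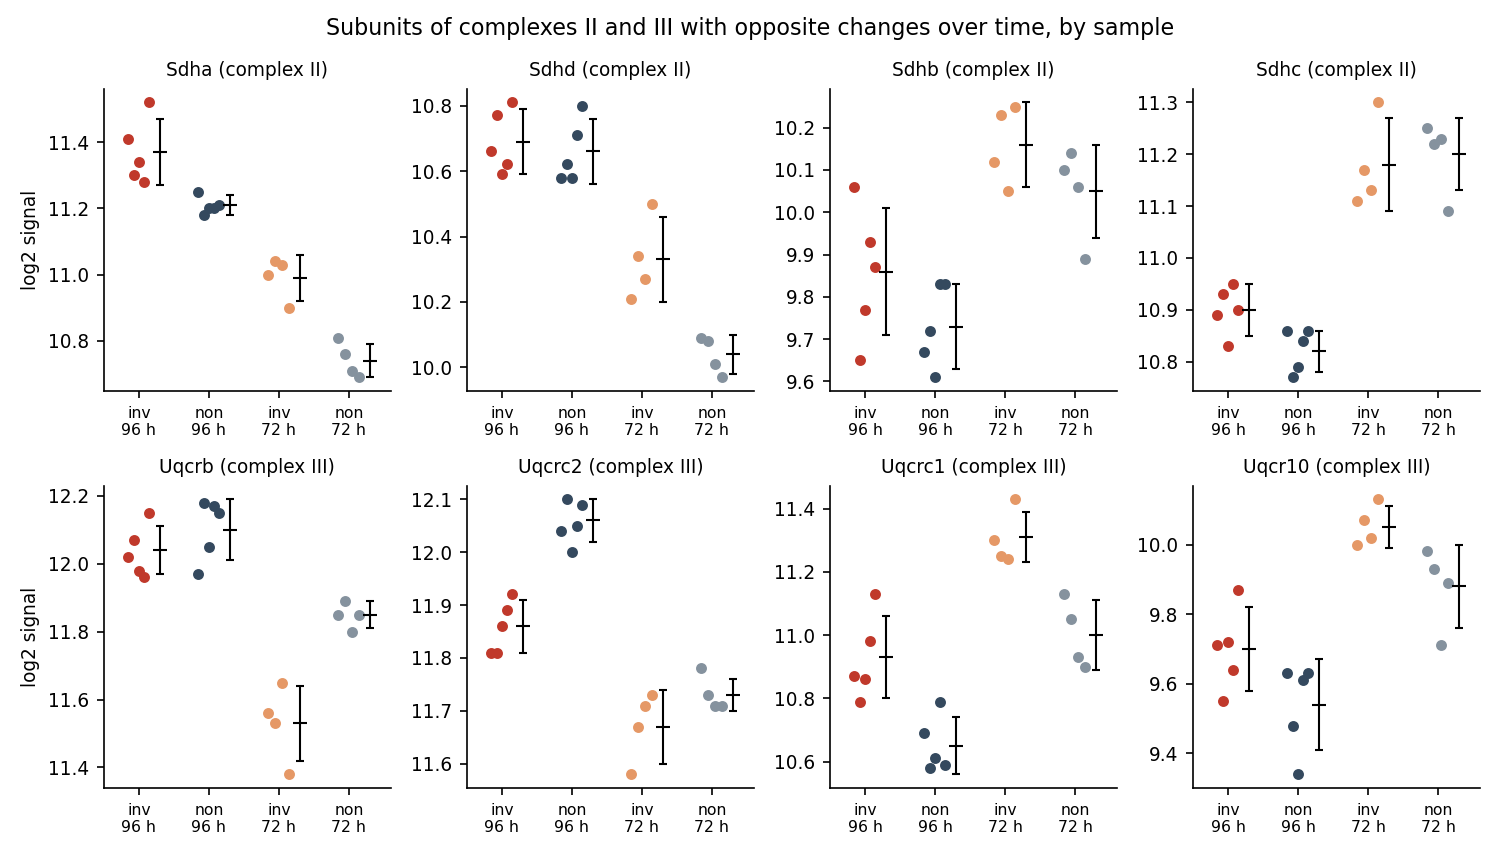
Log2 signal (vertical axes, each with its own range) of 4 subunits of complex II and 4 of complex III in every sample, with the mean and SD beside the points. Sdha, Sdhd, Uqcrb and Uqcrc2 are higher at 96 hours than at 72 hours in both fractions, and Sdhb, Sdhc, Uqcrc1 and Uqcr10 are lower.

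In complex I, 7 of 35 subunits were higher in both fractions and 3 lower. Ndufs1, the largest iron-sulfur subunit of the core, had signals of 10.40, 10.35, 10.26, 10.30 and 10.35 at 96 hours, against 9.73, 9.83, 9.85 and 9.63 at 72 hours, in the invading fraction (log2 difference 0.57, standard error 0.0681, adjusted p = 1.2e-05). In the non-invading fraction the difference was 0.47 (adjusted p = 0.00015). Ndufb6, an accessory subunit of the membrane arm, had 12.51, 12.58, 12.47, 12.51 and 12.60 at 96 hours, against 11.96, 12.06, 12.16 and 11.98 at 72 hours, in the invading fraction (0.49, adjusted p = 3.4e-06), and a difference of 0.60 in the non-invading fraction (adjusted p = 2.7e-06). Both were high in every sample of 96 hours.

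Ndufa7 was the subunit that fell most. It had signals of 9.37, 9.17, 9.21, 9.34 and 9.36 at 96 hours, against 9.86, 9.94, 9.68 and 9.95 at 72 hours, in the invading fraction (log2 difference -0.56, adjusted p = 0.00097). In the non-invading fraction it had 9.27, 9.07, 8.85, 9.07 and 9.14 at 96 hours, against 9.77, 9.81, 9.60 and 9.21 at 72 hours (-0.52, adjusted p = 0.0027), with 1 sample of 72 hours within the range of 96 hours. Ndufb8 fell by 0.30 in the invading and by 0.40 in the non-invading fraction (adjusted p = 0.022 and 0.005). Ndufa4l2 fell in the invading fraction (-0.41, adjusted p = 0.0035), with -0.17 in the non-invading fraction (adjusted p = 0.23), from signals of at most 7.04. The core of complex I had 3 of 6 subunits higher in both fractions (Ndufs1, Ndufv1 and Ndufv2), whereas Ndufs7, which carries the last iron-sulfur cluster before coenzyme Q, was lower in the non-invading fraction (-0.22, adjusted p = 0.01) with -0.01 in the invading fraction (adjusted p = 0.93).

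In complex IV, whose 17 subunits include most of the dim isoforms named above, 1 was higher in both fractions and 3 were lower. Cox8a, a small core-bound subunit, was at 11.65 to 11.79 at 96 hours, against 11.91 to 12.12 at 72 hours, in the invading fraction (log2 difference -0.24, adjusted p = 0.0017), and fell by 0.31 in the non-invading fraction (adjusted p = 0.00042). Cox7a2l fell by 0.32 in the invading fraction (adjusted p = 0.022) and by 0.24 in the non-invading fraction (adjusted p = 0.085). Its other probe set had -0.06 and 0.09 (adjusted p = 0.64 and 0.5) and did not pass. The call of Cox7a2l in the non-invading fraction ended without any 1 of the 4 samples of 72 hours. It also ended without replicate 1 or 2 of 96 hours (adjusted p up to 0.20). Cox6a2, dim in all samples, fell by 0.32 in the invading and by 0.18 in the non-invading fraction (adjusted p = 0.0022 and 0.066). The second of these calls ended without non-invading replicate 2, 3 or 4 of 72 hours or replicate 1 or 2 of 96 hours (adjusted p up to 0.17). Cox4i1, high in the invading fraction at both times, had -0.12 in the invading fraction (adjusted p = 0.26) and -0.18 in the non-invading fraction (adjusted p = 0.085), and the call in the non-invading fraction ended without any 1 of 7 samples, with an adjusted p up to 0.25. These were non-invading replicates 1 to 3 of 72 hours and 2, 3 and 5 of 96 hours, and invading replicate 4 of 96 hours, which enters through the shared spread.

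In complex V, 7 of 17 subunits were higher in both fractions and 3 lower. Atp5md, an accessory membrane protein that helps to join ATP synthases, had signals of 12.32, 12.41, 12.29, 12.40 and 12.46 at 96 hours, against 11.63, 11.71, 11.89 and 11.75 at 72 hours, in the invading fraction. The ratio was 1.55 (log2 difference 0.63, standard error 0.0633, adjusted p = 2.5e-06), and in the non-invading fraction 1.34 (0.42, adjusted p = 0.00019). All 3 of its probe sets passed in both fractions. Atp5g1 had 11.95, 11.93, 11.97, 11.99 and 12.00 at 96 hours, against 12.29, 12.23, 12.28 and 12.44 at 72 hours, in the invading fraction (-0.34, adjusted p = 0.0025), and fell by 0.50 in the non-invading fraction (adjusted p = 0.00018).

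The genes of subunit c encode the same mature protein, and they did not all pass. Atp5g2 fell by 0.17 in the invading fraction (adjusted p = 0.025), with -0.08 in the non-invading fraction (adjusted p = 0.32), and Atp5g3 had -0.12 and -0.04 (adjusted p = 0.10 and 0.65). The F1 head was uneven as well, as Atp5a1, its alpha subunit, was 0.33 and 0.35 higher in the invading and the non-invading fraction (adjusted p = 5.1e-05 and 7.4e-05), while Atp5b, its beta subunit, had 0.02 and -0.07 (adjusted p = 0.83 and 0.25). This pair, and Uqcr10 and Ndufs8 above, were chosen after their values were seen. Atp5o fell by 0.35 in each fraction (adjusted p = 0.0017 and 0.0024). Atp5d was 0.11 and 0.12 higher (adjusted p = 0.047 and 0.054), calls that were lost when invading replicate 1 of 72 hours or 4 of 96 hours was left out (adjusted p up to 0.12) and without non-invading replicate 3 or 4 of 72 hours (adjusted p up to 0.13). Atp5l fell by 0.22 in the invading fraction (adjusted p = 0.059), which ended without replicate 3 or 4 of 72 hours or replicate 2 or 3 of 96 hours (adjusted p up to 0.14).

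Whether the ratio of the fractions changed between the times was tested in 1 fit over all 18 samples. Of the 81 subunits 0 passed (limma), beside 0.015% of all genes, and 6 (7.41%) had an unadjusted p under 0.05, beside 8.14% of all genes. The 3 subunits that came nearest were Uqcrb (difference of the log2 ratios 0.26, limma adjusted p = 0.40), Sdhd (-0.26, adjusted p = 0.44) and Ndufs7 (0.21, adjusted p = 0.45).

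Among related lists of mitochondrial genes several moved mainly to 1 side with time. Of 16 genes of the citric acid cycle and the pyruvate dehydrogenase that feeds it, 10 were higher and 1 lower at 96 hours in the invading fraction, and 9 and 1 in the non-invading fraction (median log2 difference 0.296 and 0.261, beside -0.031 and -0.017 over all genes). Idh3a, the catalytic subunit of isocitrate dehydrogenase, averaged 10.90 ± 0.06 at 96 hours and 9.98 ± 0.08 at 72 hours in the invading fraction (SD, n = 5 and 4), a ratio of 1.88 (adjusted p = 2e-07), and the ratio was 1.85 in the non-invading fraction (adjusted p = 5.9e-07). Dld, the shared dehydrogenase subunit of the ketoacid complexes, had ratios of 1.68 and 1.48. Sdha and Sdhd, which belong to the same cycle, moved in this direction, and Sdhb and Sdhc did not.

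The assembly factors of complex I were higher at 96 hours in 6 of 14 cases in the invading and 7 of 14 in the non-invading fraction, and 0 were lower (limma, 0 at an unadjusted p under 0.05), with medians of 0.197 and 0.216. Ndufaf1, which acts in the membrane arm, averaged 9.20 ± 0.07 at 96 hours and 8.32 ± 0.17 at 72 hours in the invading fraction (ratio 1.85, adjusted p = 5.8e-07) and had a ratio of 2.24 in the non-invading fraction (adjusted p = 1.8e-07). Of the list for complexes II, III and V, 6 of 14 genes were higher and 1 lower in each fraction. Among the higher was Atpaf1, a chaperone of the F1 head (ratios 1.5 and 1.57). The lower was Atpif1 (-0.13 and -0.19, adjusted p = 0.079 and 0.017), an inhibitor of ATP synthase and not an assembly factor. Of the 20 factors of complex IV, 7 rose and 4 fell with time in invading cells, and 8 rose and 2 fell in non-invading cells. The assembly lists had more genes higher than lower in both fractions, whereas the subunits had about as many of each. Of all genes, 18.2% rose and 16.7% fell with time in invading cells, and 15.4% and 12.2% in non-invading cells. Above a linear signal of 100 these shares were 31.5% and 21.5%, then 26.8% and 20.1%. The complex IV list, counted without this floor, had 35% and 20%, then 40% and 10%. Its surplus in invading cells was thus close to that of all genes above the floor. Idh3a, Dld, Ndufaf1 and Atpaf1 were picked after their values were seen.

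Between the fractions the same lists were called in both directions, beside 16.7% of all genes higher and 14.7% lower at 96 hours and 13% and 13.5% at 72 hours. The citric acid cycle had 2 of 16 genes higher and 0 lower at 96 hours (limma, 3 higher and 0 lower at an unadjusted p under 0.05) and 2 higher and 1 lower at 72 hours, and the assembly factors of complex I had 2 of 14 higher and 3 lower at 96 hours and 1 and 2 at 72 hours. Of the 14 genes of the list for complexes II, III and V, 4 were higher and 1 lower at 96 hours. At 72 hours these were 4 and 2, Atpif1 being 1 of the lower. Of the 20 assembly factors of complex IV these were 3 and 3, then 4 and 2. Electron carriers and coenzyme Q synthesis had 4 of 16 higher and 1 lower at 96 hours and 2 and 1 at 72 hours, with Etfa, which takes electrons from fatty acid oxidation, at 0.28 (adjusted p = 0.0086) and 0.20 (adjusted p = 0.27). Among 20 regulators of mitochondrial gene expression 4 were higher and 4 lower at 96 hours and 3 and 5 at 72 hours (20% each way, then 15% and 25%). Ssbp1, which coats single strands of mitochondrial DNA, was lower in invading cells at both times (log2 ratio -0.36 and -0.55, adjusted p = 0.0038 and 0.0026), and Mterf3, a regulator of mitochondrial transcription, had -0.15 at 96 hours (adjusted p = 0.12) and was lower at 72 hours (-0.52, adjusted p = 0.0036).

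Under the deposited scaling, the only one for which they were counted, the ribosomal lists had most of their calls higher in the invading fraction. At 96 hours 46% of the cytosolic list were higher and 3.17% lower, and 33.8% and 14.3% of the mitochondrial list, beside 16.7% and 14.7% of all genes. At 72 hours the shares were 31.7% and 4.76%, and 18.2% and 7.79%, beside 13% and 13.5%. Of 63 cytosolic ribosomal proteins 29 were higher and 2 lower at 96 hours and 20 and 3 at 72 hours, with medians of 0.130 and 0.131, and Rpl12 went against the list (-0.70 and -0.76, adjusted p = 0.0011 and 0.009). Of 77 mitochondrial ribosomal proteins 26 were higher and 11 lower at 96 hours and 14 and 6 at 72 hours, led by Mrps18a (ratio 1.65 and 1.74, adjusted p = 0.00011 and 0.00045). Of the subunits encoded in mitochondrial DNA, COX2 and ND3 had a probe set of their own. COX2, which holds the site where cytochrome c delivers its electrons, was at 0.844 times its non-invading level at 96 hours (log2 ratio -0.24, adjusted p = 0.0029) and at 0.869 times at 72 hours (-0.20, adjusted p = 0.06), and the call at 72 hours ended without any 1 of 6 samples (replicates 1, 2 and 4 of the invading and 1, 3 and 4 of the non-invading fraction, adjusted p up to 0.14). ND3 had -0.14 and -0.05, and its call at 96 hours (adjusted p = 0.064) likewise ended without any 1 of 6 samples (invading replicates 2 to 4, non-invading replicates 1 to 3, adjusted p up to 0.14).

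**Figure D5:**
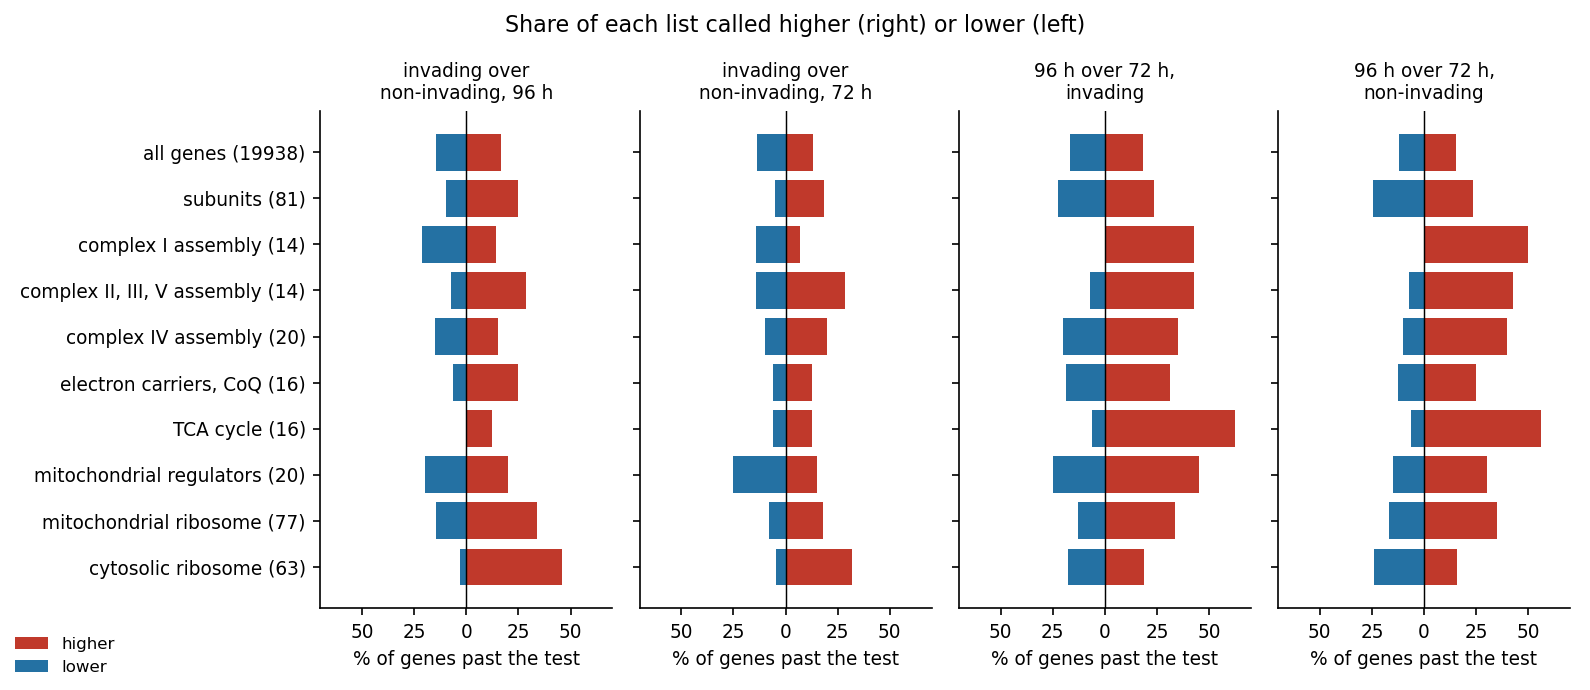
Share in percent of the genes of each list that passed the test, higher to the right and lower to the left, for the fractions at 96 and 72 hours and for 96 over 72 hours in each fraction. The number of genes stands beside each list, and the citric acid (TCA) cycle at 96 over 72 hours has 10 of 16 and 9 of 16 genes higher, beside 19 of the 81 subunits in each fraction.

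How far the subunits leaned to the invading fraction depended on the scaling of the arrays. With median-centred arrays the median log2 ratio over all genes was 0.143 at 96 hours and 0.118 at 72 hours, in place of 0.024 and 0.038. This gave 50 subunits higher and 1 lower at 96 hours and 24 and 2 at 72 hours. The median of the subunits was then 0.169 and 0.155, and of all genes 45.7% were higher and 7.92% lower at 96 hours. The lower calls of Uqcrc2, Cox7b, Cox6a1 and ND3 at 96 hours, of COX2 at 72 hours and of Ndufc1 and Atp5j at both times ended under this setting. So did the calls over time of Atp5l in the invading fraction and of Atp5d, Cox4i1 and Cox7a2l in the non-invading fraction. A further quantile normalization gave 28 higher and 12 lower at 96 hours, with a median of 0.048 for the subunits and 0.111 for all genes. At 72 hours it gave 24 and 8 (29.6% and 9.88%, beside 25.3% and 11.7% of all genes), with medians of 0.089 and 0.095. The lean relative to all genes was thus absent at 96 hours under this setting. For 96 over 72 hours in invading cells it gave 15 higher and 29 lower (18.5% and 35.8%, beside 15.5% and 18.7% of all genes). It also ended the calls of Atp5j over time in both fractions. The array holds 6617 unnamed probe sets with low numbers, whose median log2 ratio of the fractions was -0.278 at 96 hours and -0.193 at 72 hours. Without all probe sets that carry no symbol, an alternative chosen after seeing the data, 20 subunits were higher and 9 lower at 96 hours and 19 and 6 at 72 hours.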

How the data were processed

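Total RNA of 18 samples was hybridised to 1 array each (Affymetrix Mouse Gene 1.0 ST). The authors deposited log2 values, made with RMA (background correction, sketch-quantile normalization, summary per gene) in Affymetrix Expression Console, given as version 1.2 in the submitters' processing notes. They were used without further transformation. They cover 35556 probe sets, of which 21789 carry 1 symbol, 1621 several and 12146 none in the annotation of the array. The number of arrays limits the precision.

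Fractions were compared per time, and times and the difference of the ratios in 1 fit over all samples, with limma 3.58.1 in R 4.3.3, without covariates, and Benjamini-Hochberg adjusted across every probe set. Genes were called at an adjusted p under 0.10, the FDR of the study, and the p-values measure the spread between these samples. A gene was given by its brightest probe set with 1 symbol. Of 24 further probe sets of 16 subunits, 0 were called against the brightest. The scripts were checked on simulated data.

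The members, gene lists and tests were chosen with earlier results of these data known. Subunits were named by rule (per complex the 4 largest ratios past the test at 96 or 72 hours, per time comparison the 3 highest and 3 lowest, the 3 smallest p for the difference, all Sdh genes, the paired isoforms, the brightest and the dimmest), and of each other list up to 3 genes by ratio, of which some are given. Promoters came from RefSeq (GRCm38.p6), matched by gene ID. Lists are described by counts and medians with no test of their own.

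The alternatives were quantile normalization applied again, median centring, a floor of 100 on the linear signal that 1 or more samples had to pass, an intensity trend with robust estimation, only probe sets with 1 symbol, the mean of a gene's probe sets, an adjusted p under 0.05, 1 fit or separate fits, the replicate number as a block, and leaving out each sample in turn.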

Additional observations from a re-analysis of the deposited data

Results flagged for a closer look

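A single sample stood apart from the rest of its group, by Dixon's criterion at 95%, in 15 of the 300 groups tested over the 75 named genes, which is about the 1 in 20 that chance gives. At 96 hours, in the invading fraction, Atp5g2 was at 12.36 in replicate 1 (12.52 to 12.55 in the others), Cox8b at 5.97 in replicate 1 (6.09 to 6.11), Cox7b at 12.56 in replicate 5 (12.46 to 12.48), Ndufv1 at 11.31 in replicate 5 (11.03 to 11.08), Bcs1l at 9.97 in replicate 5 (9.58 to 9.69) and Ndufa4l2 at 6.13 in replicate 4 (6.35 to 6.41). In the non-invading fraction at 96 hours, Cox6a1 was at 11.28 in replicate 1 (11.16 to 11.19), Coa6 at 6.84 in replicate 1 (6.94 to 6.97), and in replicate 3 Cox6b1 was at 11.60 (11.86 to 11.92), Cox7a1 at 6.06 (6.42 to 6.48) and Ndufaf3 at 9.53 (9.80 to 9.88). At 72 hours, Cox6a1 was at 11.04 in invading replicate 1 (11.20 to 11.23) and Ssbp1 at 8.06 in invading replicate 4 (8.32 to 8.37). In non-invading replicate 1 of that time, Cox6a2 was at 6.87 (7.08 to 7.12) and Cox7a1 at 6.57 (6.46 to 6.48). Of these genes Ndufv1 kept its calls without the sample that stood apart, and Cox6a1 lost its call at 96 hours without non-invading replicate 1.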

How the results depend on the processing

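No call of a named gene turned its direction under any alternative or without any sample. Of 161 such calls 120 held in every setting, 41 ended under at least 1 alternative and 30 without at least 1 sample, and the cause was not tested.

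Between the fractions at 96 hours, median centring gave 51 called subunits (50 higher, 1 lower) in place of 28. At 72 hours, in place of 19 (15 higher, 4 lower), quantile normalization again gave 32 (24 and 8), a signal above 100 gave 30 with 10 lower, median centring 24 higher and 2 lower, the intensity trend 9 lower and 1 fit over all 18 samples 10 lower. For 96 against 72 hours, quantile normalization again gave 29 lower in the invading fraction, and an adjusted p under 0.05 gave 13 lower in the non-invading fraction.

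Without 1 sample the count was 22 to 27 at 96 hours (16 to 20 higher, 6 to 9 lower), 15 to 20 at 72 hours (11 to 17 higher), 34 to 42 over time in the invading fraction and 32 to 41 in the non-invading fraction. Lower calls at 72 hours were 2 to 6, with 2 without invading replicate 1 or non-invading replicate 2. Lower calls over time in the non-invading fraction were 13 to 22, with 13 without its replicate 2 of 72 hours or of 96 hours.

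The replicate numbers were not shown to pair the samples, as the correlation of same-numbered samples was -0.0746 to 0.0871 at 72 hours, where 1 of 4 matched best with its own number, and 0.0494 to 0.169 at 96 hours, where 4 of 5 did. With the replicate number as a block 12 subunits were called at 72 hours (10 higher, 2 lower), in place of 19. At 96 hours 26 were called, in place of 28, with 39 and 36 over time and 0 for the difference of the ratios. The block ended the calls of Cox6b2 (adjusted p = 0.10) and ND3 at 96 hours, of Atp5o, Atp5mpl, Ndufc1 and COX2 at 72 hours, of Atp5j at both, and of Atp5d, Cox4i1 and COX2 over time in the non-invading fraction.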
